A study of Mus musculus with 24 samples.

Results

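Oligodendrocytes of the ventral hippocampus were studied through the cell-type label ODC (NN-ODC) in single-nucleus RNA sequencing (snRNA-seq), with the ODC columns of a single-nucleus assay of open chromatin (snATAC-seq) as support. The members are the 4 columns of summed ODC counts among 68 columns of the snRNA-seq table. They hold 2861 of 30880 nuclei, with 844 and 972 nuclei in the 2 C57BL/6J (B6) libraries and 535 and 510 in the 2 DBA/2J (D2) libraries. Each library combined ventral hippocampus from about 2 adult male mice of an inbred strain, 10 to 16 weeks old, with no further treatment, and nuclei for snRNA-seq were sorted on NeuN, a protein of neuronal nuclei, to enrich neurons. The snATAC-seq nuclei were not enriched in this way. The tables number the libraries 2 and 3 within a strain, so the libraries are named by those numbers here. Levels are counts per 1000000 (CPM) of the symbols counted in both strains, 24634 of the 33902 listed. The other labels used were 8 of excitatory neurons and 4 of non-neuronal cells, astrocytes (Astro), microglia (MGC), oligodendrocyte precursors (OPC) and vascular and leptomeningeal cells (VLMC). The interneuron and Cajal-Retzius columns were not used here.

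Oligodendrocytes wrap the axons of the central nervous system in myelin, a stack of compacted membrane rich in cholesterol and in galactose-bearing sphingolipids. They arise from precursors that carry the growth-factor receptor Pdgfra, pass through a committed, newly formed stage, and then make the myelin proteins under transcription factors such as Sox10, Olig2 and Myrf. Mature cells also supply axons with metabolites and are joined to astrocytes by gap junctions.

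The label matched its markers. Mog, which encodes a glycoprotein of the outer myelin surface, stood in ODC at 928 and 976 CPM (B6) and at 1206 and 1254 CPM (D2). The highest mean among the other labels was 14.5 CPM, in microglia. Mbp, the main cytoplasmic protein of compact myelin, was at 4433, 4481, 4588 and 4630 CPM in the same order, against at most 165 CPM, in precursors. All 4 ODC libraries thus stood above every other library for both genes. The summed level of 6 oligodendrocyte markers lay between 13377 and 14439 CPM in ODC. The corresponding sums in ODC were 146 to 239 CPM for 9 precursor markers, 312 to 430 CPM for 9 astrocyte markers, 88.4 to 181 CPM for 8 microglial markers, 30.0 to 45.3 CPM for 7 vascular markers and 423 to 958 CPM for 11 neuronal markers. Pdgfra itself was at a mean of 4.85 CPM in ODC and 1114 CPM in precursors.

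The ODC libraries held between 1389297 and 2581231 counts, or 2305 and 2656 counts per nucleus in B6 and 2597 and 2908 in D2. Over all 4 libraries ODC had 2586 counts per nucleus, the second lowest of the 13 labels used after microglia (2096), while the excitatory labels had 6890 to 10466. One count in an ODC library was worth between 0.393 and 0.749 CPM. The authors clustered the nuclei on the same transcripts, so the levels of ODC against other labels are given as a description and without a test.

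ODC identity genes were defined as symbols with a mean of at least 20 CPM in ODC, at least 4-fold above the highest mean of any other label (after adding 1 CPM to both) and higher in every ODC library than in every library of every other label. They numbered 194 of the 6748 symbols at 20 CPM or more in ODC (2.87%). The symbol just inside the limit was Pls1 (log2 fold 2.00, 325 CPM against 80.4 in Exc-Cdh12) and the one just outside was Xrcc3 (log2 fold 2.00, 28.2 CPM against 6.29 in VLMC). The median log2 fold of the 194 was 2.93, with 91 at 8-fold or more, 51 at 16-fold or more and 30 at 32-fold or more. The label with the next highest level was non-neuronal for 139 genes and excitatory for 55. It was VLMC for 60, OPC for 34, MGC for 26 and Astro for 19.

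Long noncoding transcripts stood at the head of the list. Gm44866, a long intergenic noncoding RNA at chr7:119720811-119735760 (minus strand, mm10), was at 489, 333, 252 and 275 CPM in ODC (B6 libraries 2 and 3, then D2 libraries 2 and 3), and no other library exceeded 3.38 CPM (log2 fold 7.40). C030029H02Rik, another intergenic RNA at chr7:136268324-136318513, was at 599, 641, 778 and 849 CPM, with a log2 fold of 7.15. Next came 4930420G21Rik at chr16:88376609-88443450, at 350, 367, 417 and 522 CPM (log2 fold 6.96). For all 3 RNAs the libraries of every other label stayed at 6.34 CPM or lower. Of the 188 identity genes with a single entry in the annotation (GENCODE vM21), 34 (18.1%) were long noncoding and 154 protein-coding, against 6.84% long noncoding among the symbols at 20 CPM or more. The median gene length was 28.2 kb for identity genes and 39.5 kb for those symbols.

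Several identity genes overlapped each other. There were 15 overlapping pairs, which involved 30 genes, and 14 of the pairs lay on opposite strands. Gm33255 overlapped 4930420G21Rik on chromosome 16, Gm42756 overlapped Fbxw15 on chromosome 9, Gm48371 overlapped Gm48370 on chromosome 14 and Gm13905 overlapped Prr5l on chromosome 2. Galnt5, which encodes an enzyme of mucin-type glycosylation, ran from chr2:57997884-58045860 into the end of Ermn on the other strand (chr2:58045113-58052864). The sources used here do not state whether counting used the strand, so the levels of such partners are uncertain.

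Among the protein-coding genes at the top were Fbxw15 (an F-box protein, log2 fold 6.83), Galnt5 (6.55), Hapln2 (a link protein of the matrix at nodes of Ranvier, 6.52), Mog (6.14), Prr5l (a partner of the mTORC2 kinase complex, 6.04) and Sec14l5 (5.97). Ermn, a cytoskeletal protein of the outer myelin tongue, followed at 5.86, Opalin, a membrane glycoprotein of myelinating cells, at 5.55, and the sulphate transporter Slc13a1 at 5.47. The kinase Sgk2 (5.40), the glycosylation enzyme Galnt6 (5.31) and the cytochrome P450 Cyp2j12 (5.25) closed the first 20, which also held Gm33255 (6.68), Gm48370 (6.60), A230001M10Rik (5.76), Gm19500 (5.70) and 9330117O12Rik (5.42). In Hapln2 the ODC libraries stood at 364, 344, 324 and 367 CPM, and the highest library elsewhere at 6.76 CPM. Sgk2 had the lowest ODC levels of the 20, at 47.9, 62.5, 80.2 and 63.0 CPM, and no other library was above 2.11 CPM. None of the 20 had an ODC library inside the range of the other labels, as the rule requires.

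**Figure D1:**
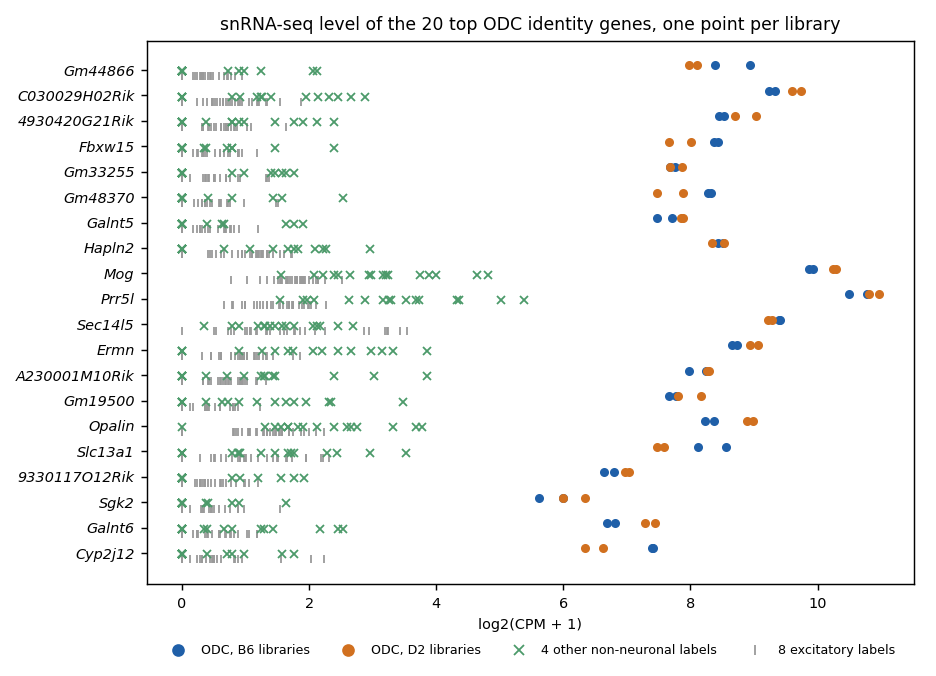
Levels of the 20 ODC identity genes with the largest fold, as log2(CPM + 1) on the horizontal axis, with one mark per library. Blue and orange circles are the ODC libraries of B6 and D2, green crosses the libraries of 4 other non-neuronal labels and grey ticks those of 8 excitatory labels. The ODC circles stand to the right of all other marks in each row, and for Mog the nearest other label is MGC at a mean of 14.5 CPM.

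Of the 8 gene lists, that of myelin proteins held the most identity genes. Of 20 genes for proteins of the myelin membrane and sheath, 12 were identity genes and 17 had their highest mean in ODC, against 17.1% of all symbols at 20 CPM or more. The median log2 fold of the list was 3.19, against -0.62 over those symbols. Mag, an adhesion molecule that faces the axon, was at 1311, 1141, 1401 and 1370 CPM, against 42.4 CPM in microglia. Mobp, a small basic myelin protein, was at 2121, 1459, 774 and 773 CPM, so that its B6 libraries lay apart from its D2 libraries and from each other. Cnp, Cldn11, Opalin, Mal, Tspan2, Ermn, Cntn2, Mbp and Mog were also among its identity genes. The 3 genes with a higher mean elsewhere were Pmp22 (23.0 CPM in ODC, 53.5 in MGC), which belongs to peripheral myelin, the tetraspanin Cd9 (178 CPM, 218 in OPC) and Gpm6b (1056 CPM, 1480 in Astro).

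The transcription factors of the lineage were mixed. Of 14 factors, 3 were identity genes, 6 had their highest mean in ODC and 8 had OPC as the nearest or highest other label, with a median log2 fold of -0.25. Myrf, the factor that switches on myelin genes, was at 166, 119, 139 and 134 CPM in ODC and 17.1 CPM in precursors. Nkx6-2, a homeobox factor of maturing oligodendrocytes, was at 70.3, 73.5, 112 and 146 CPM, against 2.03 CPM in VLMC, and the zinc-finger factor St18 was at 3327, 3423, 3300 and 3516 CPM, against 189 CPM in Exc-CA3. In contrast, Sox10, which defines the whole lineage, was at a mean of 379 CPM in ODC and 476 CPM in precursors, and Olig2 at 32.5 and 108 CPM. Olig1 (63.5 and 82.0 CPM) and Nkx2-2 (37.3 and 87.3 CPM) were also higher in precursors. Tcf7l2, a Wnt effector of newly formed cells, was highest in astrocytes (419 CPM, against 95.5 CPM in ODC). Sox8 stood slightly below precursors (log2 fold -0.17), and slightly above them (0.01) when totals were TMM-scaled, which moved the median log2 fold of all symbols at 20 CPM or more by 0.18.

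Most genes of the newly formed stage had a higher level in another label. None of the 12 was an identity gene, 7 reached 20 CPM, and 11 had a higher mean in another label, with a median log2 fold of -2.62. The receptor Gpr17, a marker of committed precursors, was at 4.68, 3.14, 5.25 and 1.40 CPM in ODC and 158 CPM in precursors. The sialidase Neu4 was at a mean of 1.20 CPM against 207 CPM in precursors. Enpp6, a choline phosphodiesterase of newly formed cells, was the exception by its mean. Its ODC libraries were at 68.2, 78.2, 100 and 136 CPM, against a mean of 65.8 CPM in precursors. The highest library outside ODC stood above all of these, at 141 CPM. Bcas1 was at similar means in ODC and precursors (546 and 625 CPM).

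The mature list was mixed. Of 16 genes, 6 were identity genes and 11 had their highest mean in ODC, with a median log2 fold of 1.26. Anln, a protein of the septin scaffold of myelin, was at 477, 434, 392 and 435 CPM, against 17.8 CPM in Exc-CA1-Galntl6. Car2, a carbonic anhydrase, was at 720, 918, 1141 and 1191 CPM, against 135 CPM in astrocytes. Trf, the iron carrier transferrin, Serpinb1a, Qdpr and Hapln2 were also identity genes. Ptgds, a prostaglandin synthase that leptomeningeal cells make in quantity, was at 1789, 1642, 530 and 798 CPM in ODC and 9134 CPM in VLMC. Klk6, a protease of mature oligodendrocytes in the spinal cord, was at a mean of 2.45 CPM.

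The lipid list was mixed as well. Of 20 genes, 6 were identity genes and 13 were highest in ODC, with a median log2 fold of 0.52. Ugt8a, which makes galactosylceramide, was at 647, 668, 794 and 854 CPM, against 108 CPM in precursors. Fa2h, which hydroxylates its fatty acid, was at 503, 498, 545 and 588 CPM, against 96.5 CPM in precursors. Gal3st1, which makes sulphatide, was at 166 CPM, against 78.1 CPM in precursors, and was no identity gene. Elovl7, a fatty acid elongase, Aspa, which releases acetate from N-acetylaspartate, Enpp2 (autotaxin) and the transporter Abca2 were the other identity genes. The cholesterol genes Hmgcs1, Sqle and Fdft1, and the fatty acid synthase Fasn, all had their highest mean in astrocytes. For Hmgcs1, an enzyme early in the pathway, the means were 38.1 CPM in ODC and 91.5 CPM in astrocytes.

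Among 16 genes of gap junctions, channels and transporters, 15 were counted in both strains (Clca1 was not), 4 were identity genes and the median log2 fold was 1.39. Among them were Gjb1, a connexin of oligodendrocyte gap junctions (32.8, 37.3, 40.5 and 49.0 CPM), Ttyh2 and Trf. Gja1, the astrocytic connexin, was at 19.2 CPM in ODC and 498 CPM in astrocytes. Among 18 receptors and signalling genes, 6 were identity genes (Gpr37, S1pr5, Erbb3, Lgi3, Pde4b and Prr5l), and the median log2 fold was -0.13. Mertk, an engulfment receptor of astrocytes and microglia, was at 6.99 CPM in ODC and 1337 CPM in MGC. Among 18 genes of the cytoskeleton and membrane traffic, Tppp, Plekhh1, Rnf220 and Tmeff2 were identity genes, and the median was 0.98.

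**Figure D2:**
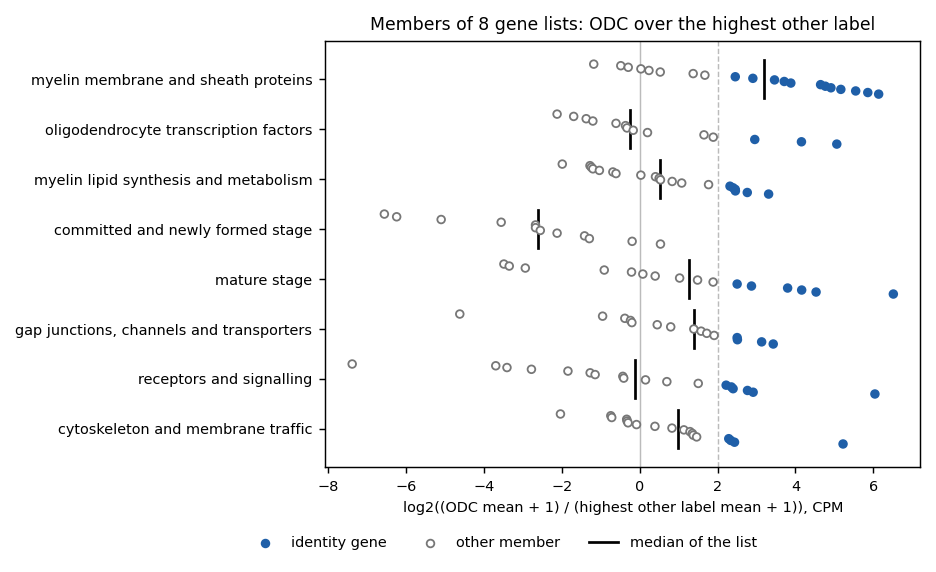
Each circle is a member of a gene list, placed by its log2 ratio of the ODC mean to the highest mean of another label, both in CPM with 1 added. Filled circles are identity genes, the black bar is the median of the list, the solid line marks equal levels and the dashed line the 4-fold limit (2). The myelin list has its median at 3.19 and the list of the newly formed stage at -2.62.

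Chromatin in the ODC columns was examined next. These columns rest on few nuclei (41 and 33 in B6, 36 and 26 in D2) and hold 311068 to 408524 counts, while the excitatory columns hold 840366 to 27815541. The authors gave snATAC-seq nuclei their labels by comparing accessibility over gene bodies with the snRNA-seq labels, so that openness at identity genes is not independent of the label, and no test was run. Only the excitatory labels were used for comparison in this assay. Of the 183 identity genes with a peak in the gene body or 2 kb upstream, 147 (80.3%) had a higher mean CPM over those peaks in ODC than in any excitatory label, against 42.2% of all 22339 symbols with such a peak. Within 1 kb of the gene start, 42 of 145 identity genes (29.0%) were at least 4-fold above every excitatory label, against 1.23% of all symbols.

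Several genes of the myelin list were open at their start in ODC and nearly closed in the excitatory labels. The peak at the start of Mag was at 52.0, 46.5, 32.1 and 36.6 CPM in ODC (B6, B6, D2, D2) and at most a mean of 0.241 CPM in an excitatory label. At Ermn the levels were 67.3, 53.9, 54.7 and 15.3 CPM, against 0.831 CPM, and at Mog they were 33.6, 26.9, 16.1 and 33.6 CPM, against 0.996 CPM. The start of Cnp was at 70.3, 100, 103 and 91.5 CPM, against 10.1 CPM. The differences were smaller at Tspan2 (55.7 against 18.5 CPM) and Cntn2 (53.5 against 24.0 CPM). At Mag, Ermn, Mog and Cnp each ODC library lay above the excitatory means, although D2 library 3 was low at Ermn. Mbp did not follow, with 12.2, 7.34, 6.43 and 15.3 CPM near its start against 26.8 CPM in Exc-Gpc6, and 234 CPM in ODC against 247 CPM in Exc-Cdh12 over its 28 peaks. St18 (59.4 CPM in ODC, 150 CPM in Exc-DG) and Aspa (0.612 and 4.34 CPM) were also lower in ODC over their peaks.

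**Figure D3:**
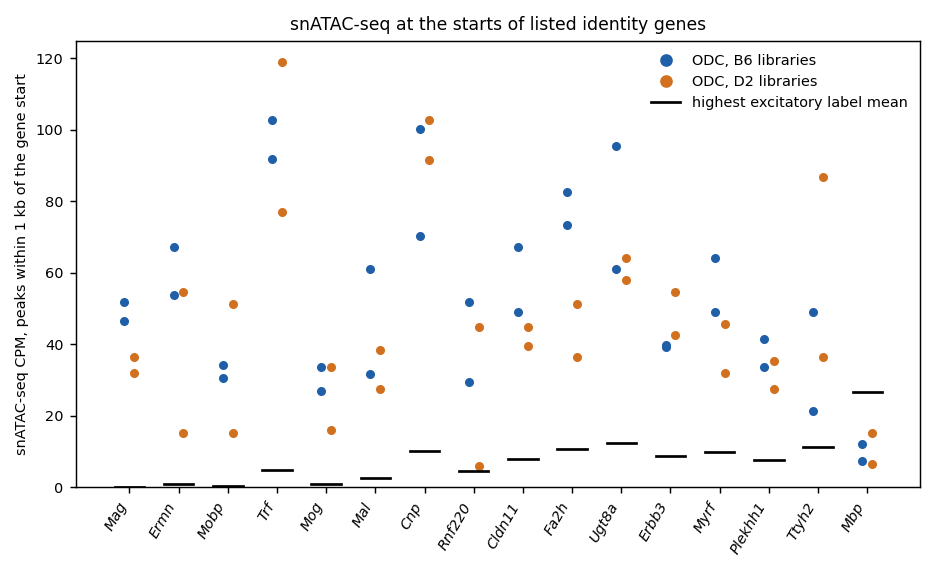
snATAC-seq CPM over peaks within 1 kb of the gene start for identity genes that belong to a gene list, with Mbp added. Blue and orange circles are the ODC libraries of B6 and D2, and the black bar is the highest mean of an excitatory label. At Mag, Mog and Mobp the bar is at 1 CPM or lower, while at Mbp it lies above all 4 circles.

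Of 10524 peaks with at least 5 counts in every ODC library, 529 (5.03%) were at least 8-fold above the highest excitatory mean and higher in each ODC library than in each excitatory library. Peaks at identity genes made up 51 of the 529 (9.64%) and 200 of the 10524 (1.90%), and 42 identity genes had one. Peaks on the chromosome that carries Mbp were left out of the sequences shown. Of the rest, the 4 with the largest fold are shown that are at most 300 bases long, touch no exon and lie at an identity gene. They were read from the plus strand of GRCm38, with matches to SOX letters (ACAAAG or ACAATG) and to MYRF letters (CTGGCAC or CTGGTAC), on either strand, in capitals. The SOX letters are the core that Sox10 and related factors bind, and the MYRF letters those of Myrf. The 2 sets of matches do not overlap in these sequences.
Mobp, chr9:120149337-120149542: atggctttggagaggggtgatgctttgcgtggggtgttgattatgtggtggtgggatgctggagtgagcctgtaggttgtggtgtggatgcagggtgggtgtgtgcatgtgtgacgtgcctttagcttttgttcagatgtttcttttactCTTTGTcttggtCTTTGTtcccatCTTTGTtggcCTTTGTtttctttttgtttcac
Insc, chr7:114747605-114747872: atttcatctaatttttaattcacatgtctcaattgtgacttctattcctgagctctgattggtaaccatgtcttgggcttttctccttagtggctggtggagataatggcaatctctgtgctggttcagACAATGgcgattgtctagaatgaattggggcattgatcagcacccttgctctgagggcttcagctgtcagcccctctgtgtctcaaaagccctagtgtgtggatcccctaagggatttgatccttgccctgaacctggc
Rnf220, chr4:117409695-117409992: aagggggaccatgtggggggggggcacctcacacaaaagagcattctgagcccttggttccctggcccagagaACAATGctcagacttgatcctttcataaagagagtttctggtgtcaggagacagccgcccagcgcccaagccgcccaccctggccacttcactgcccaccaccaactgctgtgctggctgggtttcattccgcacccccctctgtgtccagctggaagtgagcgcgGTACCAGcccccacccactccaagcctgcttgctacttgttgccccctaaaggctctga
Ppp1r14a, chr7:29291187-29291401: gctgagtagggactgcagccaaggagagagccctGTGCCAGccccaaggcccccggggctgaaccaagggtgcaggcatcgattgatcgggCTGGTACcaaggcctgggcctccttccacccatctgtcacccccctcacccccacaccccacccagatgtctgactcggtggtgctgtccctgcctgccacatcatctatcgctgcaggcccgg

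The Mobp peak ends 165 bases before the gene start and carries 4 SOX matches, all within its last part and all on the minus strand. It held 10 and 14 counts in B6 and 16 and 5 in D2 (30.6, 34.3, 51.4 and 15.3 CPM), against at most 0.356 CPM in an excitatory label. The Insc peak lies in an intron 3911 bases from the start of Insc, a gene of spindle orientation, and has 1 SOX match. It was at 45.9, 36.7, 48.2 and 54.9 CPM, against 0.219 CPM. The Rnf220 peak, also in an intron, has 1 match of each kind (42.8, 22.0, 67.5 and 58.0 CPM, against 0.549 CPM), and the Ppp1r14a peak has 2 MYRF matches and no SOX match (64.2, 49.0, 48.2 and 33.6 CPM, against 1.54 CPM). All 4 peaks were covered in each ODC library, by 5 to 21 counts.

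Over the middle 200 bases, a SOX match was found in 255 of the 529 ODC peaks (48.2%), in 14.7% of the peaks tested and in 24.6% of all 300773 peaks with sequence. A MYRF match was found in 12.7%, 5.52% and 6.24%. The median GC content of these windows was 54.0%, 64.0% and 46.5%, and its part in the shares was not tested. In the 250 bases before the gene start, a SOX match was found for 51 of 188 identity genes (27.1%), against 18.4% of the symbols at 20 CPM or more and 22.7% of all symbols. A MYRF match was found for 23 (12.2%), against 5.58% and 5.95%. A match is a run of letters and not a measured binding site.

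**Figure D4:**
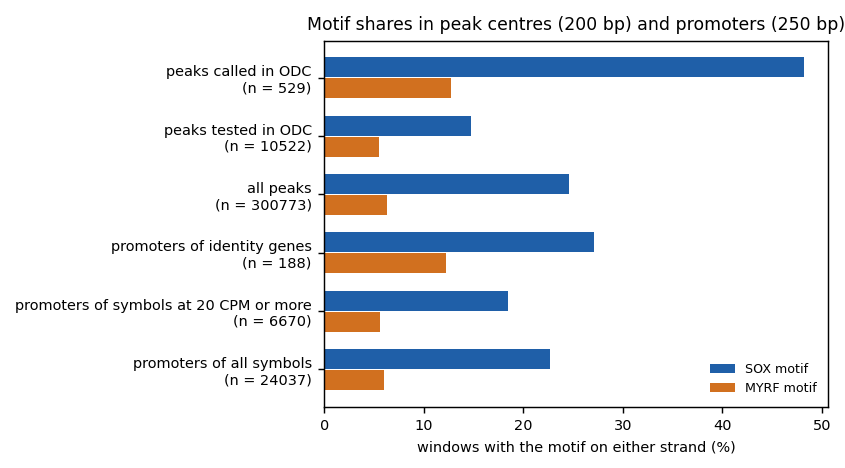
Share of windows that hold a SOX or a MYRF match on either strand, in percent, for the middle 200 bases of peaks and the 250 bases before gene starts, with the number of windows beside each pair of bars. The ODC peaks stand at 48.2% for the SOX letters, against 14.7% of the peaks tested.

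D2 was then compared with B6 within ODC, to ask which oligodendrocyte transcripts differ between the inbred strains. The test was edgeR's quasi-likelihood test on the 4 ODC columns (Benjamini-Hochberg adjustment over 11313 symbols). Levels of genes in ODC below are CPM on TMM-scaled totals. The sums over markers and over mitochondrial symbols, and the levels in other labels, are CPM without this scaling. At adjusted p under 0.05, 1602 symbols differed (14.2%), 698 higher (6.17%) and 904 lower (7.99%) in D2. With DESeq2 594 differed, and without D2 library 3 1000 did. With symbols counted in a single strain included, 1181 were higher and 1042 lower. All 194 identity genes passed the filter on low counts. Of these, 93 (47.9%) differed, 56 higher and 37 lower in D2. The share was 17.2% for tested symbols at 20 CPM or more in ODC. The median level was 165 CPM for identity genes and 50.7 CPM for those symbols. With DESeq2 54 of the 93 were called, and without D2 library 3 53 identity genes were called, of which 52 were among the 93. The change was 2-fold or more for 26 of the 93. It was 2-fold or more for 401 of the 1162 called symbols at 20 CPM or more, and for 817 of all 1602 called.

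Other contents of the ODC columns also differed between the strains. All 13 mitochondrial symbols tested were lower in D2 (edgeR), with sums of 8080 and 10673 CPM in B6 and 2131 and 1331 CPM in D2. Some of these symbols had few or no counts in D2, as given below. The strains were mapped to separate references, so the part of the reference in the mitochondrial sums cannot be told apart from the strain. The summed neuronal markers were at 840 and 958 CPM in B6 and 659 and 423 CPM in D2. Of the 11 markers, edgeR called 4 (36.4%) lower in D2, against 7.99% of all symbols tested. Summed microglial markers were at 181 and 170 CPM in B6 and 88.4 and 101 CPM in D2. Lower in D2 were 1 precursor marker of 7 tested (14.3%), 1 astrocyte marker of 8 (12.5%) and 1 microglial marker of 5, while 14.2% of all symbols tested were called, and the 1 vascular marker tested was not. Among the vascular markers Rgs5 was at 0 in both D2 libraries. The part of these RNAs in the strain differences was not tested. In turn, the summed oligodendrocyte markers in the other labels were higher in both B6 libraries than in both D2 libraries for 11 of 12 labels. The exception was OPC, at 688 to 732 CPM in B6 and 954 to 1145 CPM in D2. Over the excitatory labels the sums ranged from 113 to 203 CPM in B6 and from 74.7 to 148 CPM in D2. Mobp is among the summed markers, and its part in these sums was not tested.

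Myelin genes differed in both directions. Of the 20 in the list, 7 were higher and 2 lower in D2 (45.0% called). The share was 14.2% for all symbols tested and 17.2% for those at 20 CPM or more. The median level was 439 CPM for the list and 50.7 CPM for the symbols at 20 CPM or more. The median log2 fold change of the list was 0.21, against 0.01 over all symbols tested. Mobp was at 2132 and 1430 CPM in B6 and 793 and 808 CPM in D2, which is -1.15 as log2 fold change (standard error 0.13, adjusted p = 6.58e-07, edgeR). The last bases of Mobp (chr9:120149707-120181484) overlap the transcript Gm38642 on the same strand (chr9:120179038-120279171). Gm38642, also an identity gene, was at 10.5 and 11.2 CPM in B6 and 127 and 124 CPM in D2 (log2 fold change 3.52, adjusted p = 3.55e-12, edgeR). The sums of the pair, 2140 and 1440 CPM in B6 and 921 and 931 CPM in D2, still did not overlap between the strains. In all 12 other labels the B6 libraries of Mobp were likewise above the D2 libraries.

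Opalin was higher in D2, at 330 and 294 CPM in B6 and 484 and 528 CPM in D2 (log2 fold change 0.70, standard error 0.12, adjusted p = 0.00013, edgeR). Mog was at 933 and 957 CPM in B6 and 1235 and 1310 CPM in D2 (0.43, standard error 0.10, adjusted p = 0.00324, edgeR). Without D2 library 3 the Mog call was lost (adjusted p = 0.0721, edgeR). Plekhb1 (log2 fold change 0.88), Cd9 (0.79), Pllp (0.74), Pmp22 (0.93) and Ermn (0.37) were also higher in D2, and Nfasc lower (-0.45), although DESeq2 did not call Pmp22, Ermn or Nfasc. Mbp (0.11, adjusted p = 0.434, edgeR) and Mag (0.24, adjusted p = 0.129, edgeR) did not pass the test. Their standard errors were 0.08 and 0.10.

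Of the 14 transcription factors, 6 were higher in D2 (42.9%, edgeR), against 6.17% of all symbols tested and 7.68% of those at 20 CPM or more, with a median log2 fold change of 0.35. Creb5, a CREB-family factor, was at 254 and 275 CPM in B6 and 540 and 558 CPM in D2 (log2 fold change 1.05, standard error 0.12, adjusted p = 3.91e-07, edgeR). Sox10 was at 269 and 304 CPM in B6 and 464 and 508 CPM in D2 (0.76, standard error 0.12, adjusted p = 5.3e-05, edgeR). Nkx6-2 (0.90) and Sox8 (0.70), Zeb2 (0.36) and Nkx2-2 (0.84) were the others. DESeq2 did not call Sox8 or Nkx2-2, and Zeb2 was lost without D2 library 3. Myrf was at 166 and 117 CPM in B6 and 143 and 140 CPM in D2, with 0.01 as log2 fold change (standard error 0.16), and did not pass.

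The mature list had 4 genes higher and 4 lower in D2 among 14 tested (57.1% called). The share was 14.2% for all symbols tested and 17.2% for those at 20 CPM or more. The median level was 397 CPM for the list and 50.7 CPM for the symbols at 20 CPM or more. Ptgds was at 1798 and 1610 CPM in B6 and 543 and 833 CPM in D2 (log2 fold change -1.31, standard error 0.14, adjusted p = 1.61e-07, edgeR). Il33, an alarmin of glial nuclei, was at 289 and 303 CPM in B6 and 87.5 and 143 CPM in D2 (-1.36, standard error 0.16, adjusted p = 1.51e-06, edgeR). Dusp26 (-1.79) and Pcdh9 (-0.37) were lower too, while Car2 (0.57), Trf (0.44), S100b (0.70) and Serpinb1a (0.57) were higher. Trf was lost without D2 library 3, and Serpinb1a with DESeq2. The ODC libraries of Ptgds and Il33 did not overlap between the strains, as was the case for 54.3% of all symbols tested.

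Of 19 lipid genes tested, 6 were higher and 1 lower in D2 (36.8% called, against 14.2% of all symbols tested and 17.2% of those at 20 CPM or more). Elovl7 was at 164 and 201 CPM in B6 and 378 and 361 CPM in D2 (log2 fold change 1.01, standard error 0.13, adjusted p = 3.53e-06, edgeR), and Gal3st1 had a change of 0.62. Ugt8a (0.39), Aspa (0.38), Enpp2 (0.33) and Enpp6 (0.75) were higher as well and were not called by DESeq2, as was the case for Gpd1, which was lower (-0.78). Against the same 14.2% and 17.2%, 3 of the channel list were higher and 1 lower among 15 (26.7%). Of the receptors, 2 were higher and 2 lower among 17 (23.5%). None of these 8 calls held in every alternative: Abca8a, Slc16a1, Slc44a1, Erbb3, Lingo1 and Plcl1 were lost with DESeq2, and Trf and Rffl without D2 library 3. Of the cytoskeletal genes 4 were higher and 1 lower among 18 (27.8%), and Tmeff2 was lost without D2 library 3. The lower cytoskeletal gene was Elmo1 (986 and 809 CPM in B6, 473 and 441 CPM in D2, log2 fold change -0.97), an engulfment adaptor whose level was 2763 CPM in microglia. Of the newly formed list, Enpp6 was called among 8 tested (12.5%), a share near the 14.2% of all symbols.

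Outside the lists, identity genes showed changes of similar or larger size. Tnni1, a troponin subunit, was at 86.8 and 80.1 CPM in B6 and 16.9 and 16.1 CPM in D2 (log2 fold change -2.33, standard error 0.21, adjusted p = 1.59e-08, edgeR). Dbndd2 was at 390 and 272 CPM in B6 and 66.8 and 81.9 CPM in D2 (-2.15), and overlaps Gm20458 on the same strand. Adipor2, an adiponectin receptor, was at 787 and 551 CPM in B6 and 233 and 257 CPM in D2 (-1.45, standard error 0.14). In the other direction, the inositol transporter Slc5a11 was at 25.1 and 17.7 CPM in B6 and 65.3 and 109 CPM in D2 (2.05, standard error 0.23, adjusted p = 6.76e-07, edgeR). The noncoding RNA Gm5535 was at 72.7 and 47.8 CPM in B6 and 249 and 288 CPM in D2 (2.18). These 5 genes kept their call in each alternative run. Of the first 20 identity genes, 11 (55.0%) were called, 6 higher and 5 lower in D2, and none changed 2-fold. The share was 14.2% for all symbols tested and 17.2% for those at 20 CPM or more. Of the 11, 4930420G21Rik, Ermn, Fbxw15 and Gm44866 were lost with DESeq2, and C030029H02Rik, Gm48370 and Mog without D2 library 3. Opalin, Slc13a1, Galnt6 and Cyp2j12 were called in each alternative run.

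**Figure D5:**
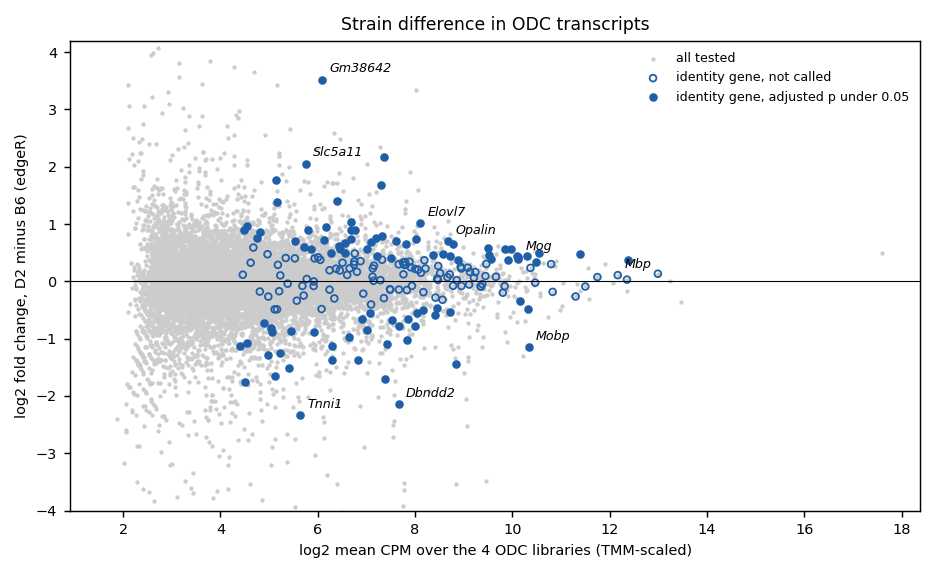
Strain difference of ODC transcripts, with the log2 mean CPM over the 4 libraries on the horizontal axis and the log2 fold change, D2 minus B6, on the vertical axis. Grey points are all symbols tested, and blue circles the 194 identity genes, filled where the adjusted p was under 0.05 (edgeR). The vertical axis leaves out 65 symbols, none an identity gene, and Mobp stands at -1.15 against 0.70 for Opalin.

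The largest strain differences in ODC at 20 CPM or more lay outside the identity genes, and most were shared with the other labels. In D2 the symbols Gm12160, Gm47015, Mnd1, Stab2, Gm16271, Fcho1, Banf2 and Mylk were higher. Gm12160 had no count in B6 and stood at 402 and 374 CPM in D2, which is at least 558-fold higher when B6 is set to a floor of 3 counts over its libraries. Gm47015 (1 count in B6 and 176 in D2) had a ratio of 284 (95% counting interval 50.4 to 11300). Mnd1, a meiotic recombination gene, had a ratio of 183 (32.1 to 7280). Stab2, a scavenger receptor, was at 3.66 and 1.16 CPM in B6 and 196 and 231 CPM in D2, and its antisense partner Gm16271 at 1.57 and 0.770 CPM and 60.7 and 59.2 CPM. In Gm12160, Gm47015, Stab2 and Gm16271 all 12 other labels had both D2 libraries above both B6 libraries. As the strains were mapped to separate references, the part of the reference in these differences cannot be told apart from the strain.

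Fcho1, Banf2 and Mylk were different in this respect. Fcho1, an endocytic adaptor, was at 6.28 and 2.70 CPM in B6 and 160 and 175 CPM in D2 (log2 fold change 5.29, standard error 0.24, adjusted p = 7.79e-14, edgeR), while no other label had a D2 library above 44.2 CPM and both D2 libraries were higher in 5 of the 12. Banf2 was at 1.05 and 2.31 CPM in B6 and 59.1 and 50.4 CPM in D2 (4.90), and its D2 libraries elsewhere stood at 1.76 CPM or lower. In 10 of the 12 other labels Banf2 was higher in both B6 libraries. Mylk, myosin light chain kinase, was at 3.14 and 1.93 CPM in B6 and 70.6 and 68.0 CPM in D2 (4.79), and 1 other label had both B6 libraries above both D2 libraries and none the reverse. The difference of these effects between ODC and the other labels was not tested.

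Lower in D2 were mt-Nd3, Rnasek, mt-Co2, Pram1, Gm5820, mt-Co3, 7630403G23Rik and Cpne1. The mitochondrial subunit mt-Nd3 was at 182 and 202 CPM in B6 and at 0 in both D2 libraries, at least 180-fold lower in D2 with the same floor set over D2. The bounds were 64.3-fold for Rnasek, 48.5-fold for Pram1 and 40.4-fold for Gm5820. For mt-Co2 the levels were 1097 and 1398 CPM in B6 and 1.54 and 1.46 CPM in D2, and for mt-Co3 1613 and 1987 CPM and 10.7 and 8.04 CPM. Cpne1, a calcium-dependent lipid-binding protein, had a ratio of 132 (23.4 to 5230). For these 7 symbols both B6 libraries were above both D2 libraries in all 12 other labels. The B6 and D2 reads were mapped to separate references, and the part of the reference in these differences cannot be told apart from the strain. The exception was 7630403G23Rik, a noncoding RNA at 94.1 and 106 CPM in B6 and 1.54 and 0 CPM in D2, which was no higher than 1.97 CPM in any library of another label.

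The share of nuclei labelled ODC was lower in both D2 libraries than in both B6 libraries. It was 9.69% (844 of 8707, 95% exact binomial interval 9.08 to 10.3) and 12.4% (11.6 to 13.1) of the snRNA-seq nuclei in B6, and 6.68% (6.15 to 7.25) and 8.08% (7.42 to 8.78) in D2. The D2 to B6 ratio of the mean shares was 0.669 ± 0.147 (SD from the spread of the shares, n = 2 libraries per strain). As a share of non-neuronal nuclei, ODC was at 30.7% and 34.1% in B6 and 21.7% and 22.3% in D2. In snATAC-seq, where nuclei were not sorted on NeuN, it was 0.551% (0.395 to 0.746) and 0.686% (0.473 to 0.962) of all nuclei in B6 and 0.463% (0.324 to 0.640) and 0.362% (0.237 to 0.531) in D2, so that these intervals overlap between the strains. Both assays placed every D2 library below every B6 library, but the snATAC-seq labels were transferred from the snRNA-seq labels. Non-neuronal nuclei of all labels were few in snATAC-seq, with 161 of 7445 and 103 of 4810 in B6 and 175 of 7776 and 135 of 7175 in D2. The snATAC-seq shares are thus no independent check on the snRNA-seq shares. These are the authors' numbers of nuclei, intervals cover counting error only, no test was run, and the NeuN sort can set the share in snRNA-seq.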

How the data were processed

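The deposited snRNA-seq and snATAC-seq values are raw counts that the authors summed per cell type and library. Per the paper's methods and the labels, the authors mapped reads with Cell Ranger 6.0.2 (introns retained) or Cell Ranger ATAC 2.0.0 to mm10 for B6 and to an SNP-swapped mm10 for D2, removed doublets with DoubletFinder, clustered with Seurat 4.0.5, merged peaks that MACS had called in each sample. The GENCODE release is not given in the sources used here. Their deposited numbers of nuclei are used as given.

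The strain of each column is clear and its sample is not, since the tables number libraries 2 and 3 and the labels number replicates 1 and 2. The 4 ODC columns of each assay were grouped by strain. The excitatory columns, and in snRNA-seq the other non-neuronal columns, are given as the authors' values without a test. The remaining 16 snRNA-seq and 24 snATAC-seq columns were not used, and the 16 methylation samples were not analysed here. A comparison of strain effects with astrocytes and a permutation test on the shares of nuclei had been planned and were not done.

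CPM used the symbols counted in both strains, which held 96.0% to 98.8% of the ODC counts. The main test was edgeR 4.0.16 (R 4.3.3; TMM, filterByExpr, quasi-likelihood test for D2 against B6, no covariates), with DESeq2 1.42.0 as an alternative. A standard error is the log2 fold change divided by the square root of F. The biological coefficient of variation was 0.0903. The script was tested on simulated counts. Each library pools animals, so p-values measure the spread between such libraries. Peaks at a gene were those over its body and 2 kb upstream (GENCODE vM21), and sequence came from RefSeq's GRCm38. Python 3.11.15, numpy 2.4.6, pandas 2.3.3 and scipy 1.17.1 were used.

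The members, lists and limits were chosen with earlier results of these data known. Named are the 20 identity genes with the largest fold, members of the lists, the 8 largest strain differences in each direction (adjusted p under 0.05, mean of at least 20 CPM, no overlap between strains) and identity genes that differed between strains. Fbxw15 and other single examples among them, Gm38642, the peaks and the motifs were picked after their values were seen. Alternatives were other folds, pseudocounts, minimums, scalings and symbol sets, DESeq2, RLE, the library number as a block, other gene windows and leaving out each library. Some members of the lists are counted and not reported here by name.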

Additional observations from a re-analysis of the deposited data

How the results depend on the processing

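The number of identity genes was 396 at a fold limit of 2 and 91 at a limit of 8, and lay between 160 and 231 under the other alternatives, with 192 to 194 when one ODC library was left out. For D2 minus B6 in ODC, DESeq2 called 594 symbols (237 higher and 357 lower in D2) and 54 identity genes. Without one library the count lay between 1000 and 1467 (413 to 627 higher, 587 to 846 lower), with 53 to 90 identity genes, and the lowest values came without D2 library 3. With all symbols 1181 were higher and 1042 lower in D2, so that most calls were higher, where most were lower among the symbols counted in both strains. The cause was not tested. Whether the library numbers pair the samples cannot be told from 2 libraries per strain. The deviations of same-numbered libraries from their strain means correlated at -0.0401 across transcripts. A fit with the library number as a block called 1700 symbols and 96 identity genes. For the 16 symbols with the largest strain differences, 0 of 144 values under the alternatives lost the call, and no identity gene among the 93 reversed direction in any alternative run. The 16 and the 93 were chosen by their calls in these same libraries, so this stability was largely set by the choice and is no separate support. The D2 to B6 ratio of shares of nuclei was 0.678 over non-neuronal nuclei and 0.597 to 0.762 when one library was left out. The share of identity genes highest in ODC by snATAC-seq was 85.9% with at least 10 ODC counts, against 53.3% of all symbols. Within 1 kb of the start it was 83.4%, against 54.8% of all symbols. Without one library it was 78.7% to 83.1%, against 41.4% to 42.9%. The comparison with astrocytes was not run, so its alternatives were not run either. Depth limits low symbols most, since 1 count was worth up to 0.749 CPM, and the snATAC-seq columns rest on 26 to 41 nuclei.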
